A study of Caenorhabditis elegans with 8 samples.

Results

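The 6 genes described here code for GATA transcription factors of the gut and the epidermis of *Caenorhabditis elegans*: *end-1* (F58E10.2), *end-3* (F58E10.5), *elt-7* (C18G1.2), *elt-2* (C33D3.1), *elt-1* (W09C2.1) and *elt-3* (K02B9.4). They were chosen by name, and they are 6 of the 25509 genes in the deposited expression table. All 6 passed the filter on low values, which asked for 1 FPKM or more in 2 or more of the 8 samples. FPKM is the number of sequenced fragments per kilobase of gene, scaled to the size of the library, so levels of different genes can be set side by side.

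GATA factors bind short DNA motifs built around the letters GATA through zinc fingers. In the worm, the whole intestine descends from 1 cell of the early embryo, the E cell. The maternal factor SKN-1 and a Wnt signal that acts through the TCF factor POP-1 switch on *end-1* and *end-3* there, and these short-lived endoderm specifiers switch on *elt-7* and *elt-2*, which drive the differentiation of intestinal cells. *elt-2* is known to stay on in the intestine for life. In the ectoderm, *elt-1* specifies the epidermal fate, and *elt-3* acts below it in the differentiation of the main epidermal syncytium.

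The RNA came from whole wild-type worms of strain Bristol N2 with no other treatment. The stages were embryos of mixed age, larvae of L1-L2, larvae of L3-L4 and young adults, and each larval sample was a pool of 2 intermolt populations and the molt between them in volumes of 5, 5 and 2. After hatching at 20 °C, L1-L2 larvae had been in liquid culture for 6 to 20 hours, L3-L4 larvae for 28 to 42 and young adults for 50 to 54. Total RNA of each stage has a dsRIP counterpart, the part of the RNA pulled down with the J2 antibody against double-stranded RNA (dsRNA), and the series also holds editing-enriched regions (EERs), stretches with clustered A-to-I editing. By the labels there are 8 samples, 1 for each molecule at each stage, and the table gives 3 numbered columns for each. Whether the columns are separate cultures is not stated in the labels, so a sample counts once and the columns show only its spread.

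The reads behind the values summed to between 1992079 and 2264595 per total RNA sample and between 1211042 and 1751557 per dsRIP sample. Stage markers followed the labels: the 5 yolk genes summed to at most 14.98 FPKM in any L3-L4 total RNA column and to at least 909 in every young adult column, and the adult collagen *col-19* had 0 reads in embryo and L1-L2 total RNA. Column 1 of young adult total RNA stood apart in its yolk, sperm and maternal germline genes. Its yolk genes summed to 909 FPKM against 6063 and 5566 in columns 2 and 3, its sperm genes to 691 against 334 and 131, and its maternal germline genes to 193 against 499 and 698. Values of the 6 genes that rest on young adult total RNA are therefore also given without that column. Means of other genes in young adult total RNA include it. Among those printed below none moved by over 1.5 times without it except where stated. Tissue markers also varied between other columns, which stayed in the means. The intestinal markers named below summed to 2179 FPKM in column 2 of young adult total RNA against 780 and 828 in columns 1 and 3. In column 1 of L3-L4 total RNA they summed to 1614 against 4473 and 4272. The epidermal markers *dpy-7*, *lin-26*, *che-14*, *rol-6* and *col-19* summed to 70.8 in column 1 of L1-L2 total RNA against 360 and 177.

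The 6 genes lie on 3 chromosomes, all on the plus strand (strands, exons and coding lengths from WBcel235, spans from the deposited table in ce10). *end-1* spans 13985122 to 13986985 of chromosome V, and *end-3* spans 14014686 to 14015961 of the same chromosome, with 27.7 kb and 4 genes between them. *elt-7* spans 4770657 to 4773077 of chromosome V. *elt-2* spans 10481177 to 10483520 and *elt-3* 13934815 to 13941149 of chromosome X, and *elt-1* spans 9615139 to 9620124 of chromosome IV. The longest coding sequence runs over 4 exons in *end-1*, *end-3* and *elt-7*, over 7 in *elt-1*, 8 in *elt-3* and 9 in *elt-2*. It codes for 221 residues in *end-1*, 242 in *end-3*, 198 in *elt-7*, 433 in *elt-2*, 488 in *elt-1* and 317 in *elt-3*, so the endoderm specifiers and *elt-7* are the shorter proteins. No EER overlapped any of the 6 spans. The nearest EER lay 5.51 kb from *elt-3*, 6.66 kb from *end-3*, 21.0 kb from *end-1* and 44.7 kb from *elt-7*, and for *elt-2* and *elt-1* the nearest lay 138 and 261 kb away. Of the 6 spans, that of *elt-3* alone overlaps other annotated genes, a pair of noncoding RNAs that held 2 reads and 1 read in the whole series beside the 631 reads of *elt-3*.

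*end-1*, the more abundant endoderm specifier, was an embryo transcript. In total RNA its 3 embryo columns were 26.9, 15.2 and 16.9 FPKM, those of L1-L2 and L3-L4 larvae were all 0, and those of young adults were 0, 0 and 4.44. The embryo columns lay above every later column. From embryos to L1-L2 larvae the reads went from 27 to 0, which is at least 8.93-fold lower when 3 reads over the sample take the place of 0, with a lower 95% counting limit of 6.78. Those 3 reads correspond to 2.26 FPKM, so a larval level below that was not detectable at this depth. Here and below, fewer cells of a type and less RNA per cell cannot be told apart in RNA of whole worms.

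The dsRIP RNA of *end-1* followed the same course. Its embryo columns were 34.9, 24.3 and 12.9 FPKM, and all 9 later columns were 0. The 20 embryo reads against 0 in L1-L2 put the level at least 6.95-fold lower by the same reckoning, with a lower counting limit of 5.15.

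*end-3*, which acts with *end-1* in endoderm specification, was low throughout, with 19 reads in the whole series. Its embryo columns were 4.49, 8.45 and 2.192 FPKM in total RNA and 8.14, 8.12 and 0 in dsRIP. After the embryo stage 1 total RNA column, in L1-L2, was above 0, at 2.78 FPKM. In dsRIP 1 column of L3-L4 larvae was at 2.32 FPKM and 1 of young adults at 5.02. The embryo total RNA columns lay above those of L3-L4 larvae and young adults, all at 0, but overlapped those of L1-L2 larvae, where 9 reads stood against 1 (ratio 8.93, 95% counting interval 1.24 to 391). From embryos to young adults the level in total RNA was at least 2.99-fold lower with 3 reads in place of 0, but the lower 95% counting limit was 1.97, and without column 1 of young adults these values were 1.79 and 1.18. For *end-1* the reads were 13.5-fold lower in young adults (27 against 2, interval 3.38 to 117), and 8.06-fold without that column.

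The embryo level of *end-1* per kilobase was 3.90 times that of *end-3* in total RNA and 4.43 times in dsRIP, and *end-1* was the higher of the pair in 3 of 3 columns of each. In total RNA the ratio ranged over the columns from 1.80 to 7.70.

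**Figure D1:**
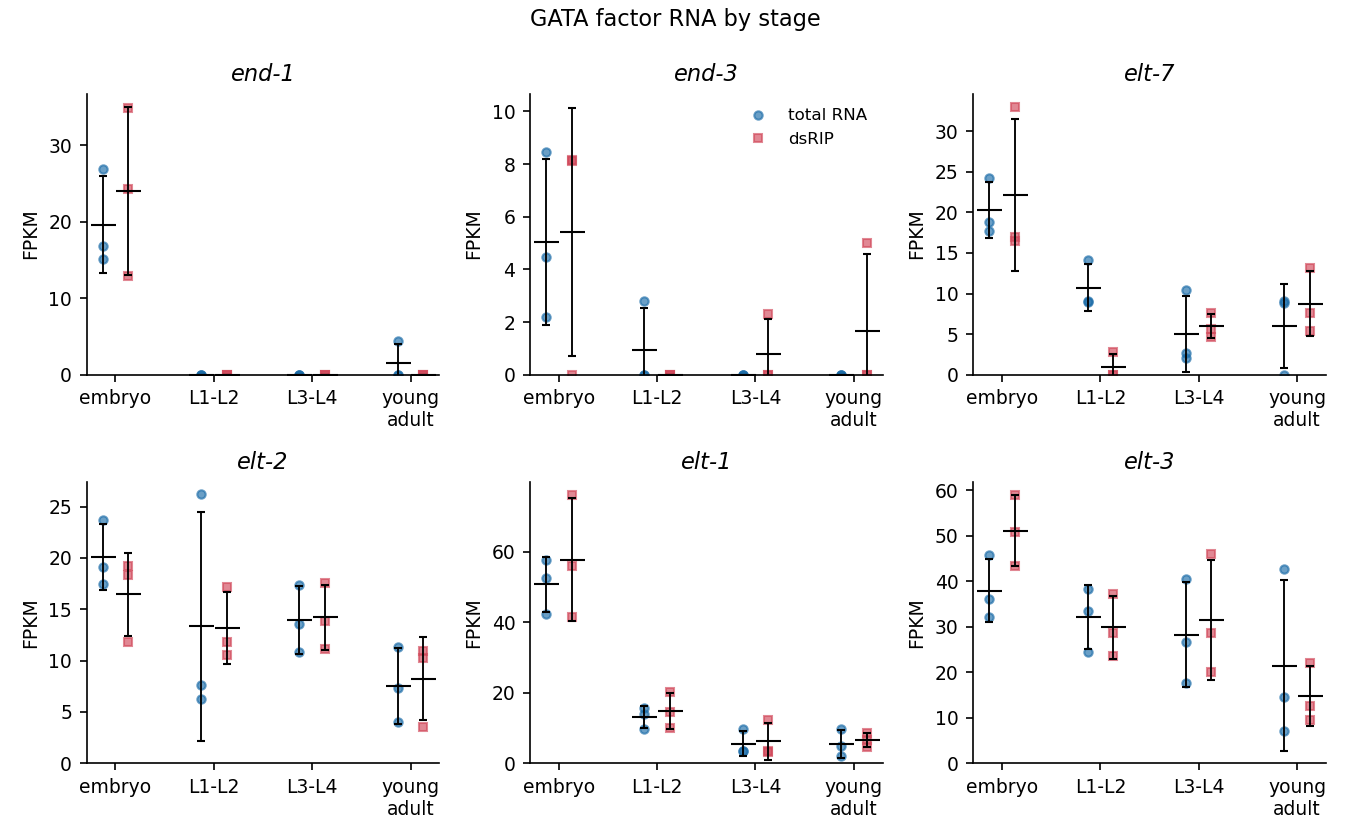
FPKM (linear axis, a different scale in each panel) of the 6 genes by stage in total RNA (circles) and dsRIP RNA (squares). Points are the 3 numbered columns of a sample, black lines the mean and the SD over those columns. *end-1* and *elt-1* have their high points in embryos, while *elt-2* stays between means of 7.54 and 20.1 in total RNA, and column 1 of young adult total RNA gives the point at 42.7 for *elt-3*.

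*elt-7*, which drives intestinal differentiation together with *elt-2*, was highest in embryos and still present at the later stages. In total RNA its columns were 24.2, 18.8 and 17.7 FPKM in embryos, 9.06, 14.1 and 9.004 in L1-L2, 2.69, 10.4 and 2.02 in L3-L4, and 8.84, 9.07 and 0 in young adults. The embryo columns lay above all others, and the 3 later stages overlapped each other. The level was 3.49-fold lower in young adults than in embryos (35 reads against 10, 95% counting interval of the fold 1.69 to 7.90), and 5.22-fold lower without column 1 of young adults (interval 1.87 to 20.2). The step from embryos to L1-L2, a log2 difference of -0.86 and so not called, was -1.13 and called when column 2 was left out of both samples.

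In dsRIP RNA *elt-7* had a low point in L1-L2. Its columns were 32.96, 16.4 and 17.0 FPKM in embryos, 2.79, 0 and 0 in L1-L2, 5.65, 7.66 and 4.69 in L3-L4, and 13.2, 7.61 and 5.42 in young adults. The L1-L2 columns lay below those of every other stage, but they hold 1 read in all. Against the 9 reads of L3-L4 larvae the ratio of L1-L2 to L3-L4 was 0.154, with a 95% counting interval of 0.00352 to 1.11, which includes no difference.

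*elt-2*, the intestinal factor known for lifelong expression, varied least by fold among the 4 intestinal genes. In total RNA its columns were 23.7, 17.5 and 19.1 FPKM in embryos, 6.28, 7.58 and 26.2 in L1-L2, 10.9, 13.6 and 17.4 in L3-L4, and 3.97, 7.33 and 11.3 in young adults. Embryos were above young adults without overlap, and L1-L2 larvae spanned nearly the whole range. The reads were 2.78-fold lower in young adults than in embryos (64 against 23, 95% counting interval 1.70 to 4.68), and 2.12-fold without column 1 of young adults (interval 1.24 to 3.81). The step from embryos to L1-L2 hung on column 3: its log2 difference was -0.56 with all columns, and -1.44 and called without that column.

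The high L1-L2 column of *elt-2*, column 3, was also the highest of its sample for the summed intestinal markers *ges-1*, *asp-1*, *ifb-2*, *act-5* and *vha-6*. Their sum was 3982 FPKM there against 2068 and 2586 in columns 1 and 2. In L1-L2 dsRIP the markers were also highest in column 3, at 4056 FPKM, but *elt-2* was highest in column 2. The highest columns of the markers and of *elt-2* also differed in every other sample except young adult dsRIP. All 5 markers were detected at every stage, and the part of intestinal content in the *elt-2* value was not tested. In dsRIP the *elt-2* columns were 11.8, 19.2 and 18.3 FPKM in embryos, 10.52, 17.2 and 11.8 in L1-L2, 11.2, 17.5 and 13.9 in L3-L4, and 3.56, 10.9 and 10.2 in young adults. There the first 3 stages overlapped, and young adults lay below both embryos and L3-L4 larvae without overlap, though by less than 2-fold on the log2(FPKM + 1) scale.

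Set against each other per kilobase, *elt-2* and *elt-7* were level in embryo total RNA, with a ratio of *elt-2* to *elt-7* of 0.992. In L3-L4 larvae *elt-2* was the higher in 3 of 3 total RNA columns, with a ratio of means of 2.77, and in 3 of 3 dsRIP columns, with a ratio of 2.37. In young adults the ratio of means in total RNA was 1.26, and 2.05 without column 1, and the order was mixed over columns, with *elt-2* higher in 1 of 3 columns of total RNA and in 2 of 3 of dsRIP.

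*elt-1*, which specifies epidermal fate, had the highest embryo level of the 6 genes and was lower at each of the first 2 steps after that. In total RNA its columns were 57.6, 52.5 and 42.2 FPKM in embryos, 15.7, 9.73 and 14.0 in L1-L2, 3.49, 9.62 and 3.49 in L3-L4, and 1.91, 4.90 and 9.82 in young adults. Embryos lay above L1-L2 larvae and L1-L2 larvae above L3-L4 larvae without overlap, while L3-L4 larvae and young adults overlapped. The level was 3.73-fold lower in L1-L2 than in embryos (203 reads against 54, 95% counting interval 2.75 to 5.13) and 9.64-fold lower in young adults (21 reads, interval 6.14 to 15.9), or 6.73-fold without column 1 of young adults (interval 4.15 to 11.6). The step from L1-L2 to L3-L4 larvae, a log2 difference of -1.11, shrank to -0.77 without column 1, -0.86 without column 3 and -0.82 with the sample medians set equal, all short of 2-fold, and grew to -1.82 without column 2.

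In dsRIP RNA the columns of *elt-1* were 76.0, 41.4 and 55.8 FPKM in embryos, 14.5, 10.03 and 20.2 in L1-L2, 12.2, 3.31 and 3.04 in L3-L4, and 8.56, 6.58 and 4.68 in young adults. Embryos were above all later columns, and L1-L2 and L3-L4 larvae overlapped. The level in young adults was 8.92-fold lower than in embryos (95% counting interval 5.30 to 16.05).

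*elt-3*, the epidermal differentiation factor, had overlapping levels at all stages of total RNA. In total RNA its columns were 36.0, 45.6 and 32.2 FPKM in embryos, 38.3, 24.5 and 33.4 in L1-L2, 40.6, 26.7 and 17.5 in L3-L4, and 42.7, 14.5 and 7.10 in young adults. Every stage overlapped every other. The reads were 1.64-fold lower in young adults than in embryos (112 against 68, 95% counting interval 1.205 to 2.25). Without column 1 of young adults they were 3.72-fold lower (112 against 18, interval 2.25 to 6.50).

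The young adult value of *elt-3* rests on column 1, the column with low yolk and high sperm genes. With it the mean was 21.4 ± 18.8 FPKM (SD over 3 columns of 1 sample), and without it 10.8. Without it the log2 difference between young adults and embryos went from -0.80 to -1.72, that between young adults and L3-L4 larvae from -0.38 to -1.31, and the young adult columns no longer overlapped those of either stage. Whether the age or make-up of the worms in that column set the value was not tested.

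In dsRIP RNA *elt-3* was lower in young adults with all columns in use. Its columns were 58.9, 50.8 and 43.4 FPKM in embryos, 37.2, 23.5 and 28.7 in L1-L2, 45.9, 20.0 and 28.6 in L3-L4, and 9.57, 22.1 and 12.6 in young adults. Embryos lay above L1-L2 larvae and above young adults without overlap. The reads were 3.39-fold lower in young adults than in embryos (91 against 28, 95% counting interval 2.20 to 5.37).

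The order of the epidermal pair turned over after the embryo stage. In embryos the *elt-3* level per kilobase was 0.747 times that of *elt-1* in total RNA, with *elt-3* the lower in 3 of 3 columns, and 0.884 times in dsRIP, where *elt-3* was the lower in 2 of 3. In L1-L2 larvae it was 2.44 times in total RNA and 2.00 times in dsRIP, and in L3-L4 5.11 and 5.09 times, with *elt-3* the higher in 3 of 3 columns of each molecule. In young adults the ratio was 3.86 in total RNA, with *elt-3* higher in 2 of 3 columns, but 1.46 without column 1, and 2.23 in dsRIP, with *elt-3* higher in 3 of 3.

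**Figure D2:**
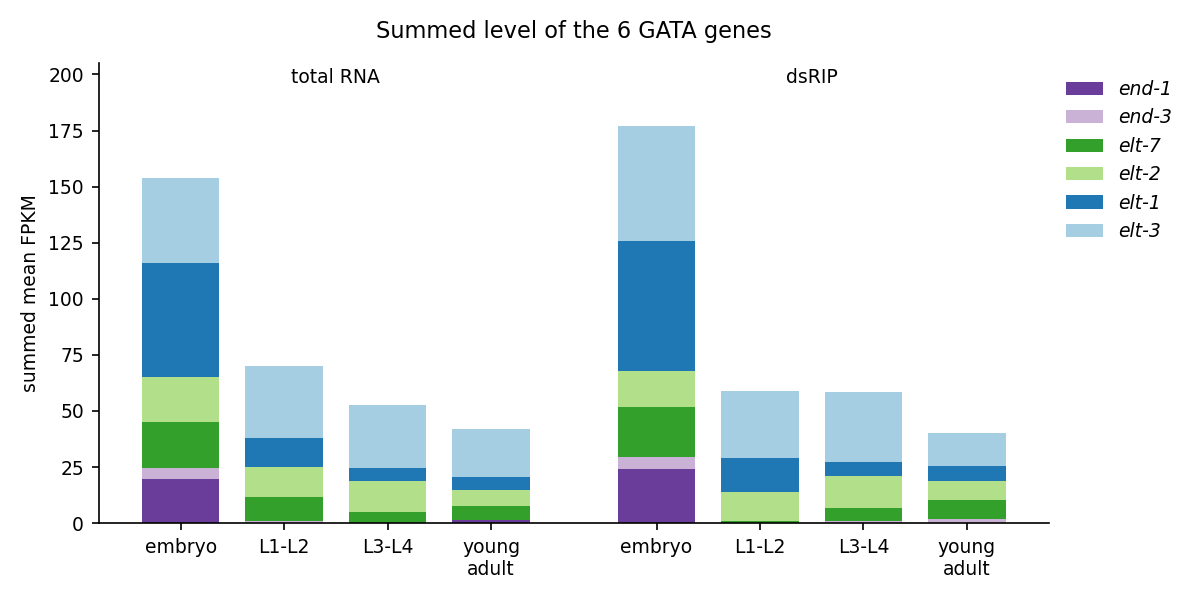
Summed mean FPKM of the 6 genes (linear axis from 0) in each of the 8 samples, with each gene as 1 block of a bar. The sum goes from 154 in embryos to 42.0 in young adults in total RNA and from 177 to 40.0 in dsRIP, and *elt-3* takes the largest block in each larval and adult sample.

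Added together, the 6 genes reached 154 FPKM in embryo total RNA, 70.2 in L1-L2, 52.8 in L3-L4 and 42.0 in young adults. *elt-1* made up 33.01% of the embryo sum and *elt-3* 24.7%. The share of *elt-3* was 45.7% in L1-L2, 53.5% in L3-L4 and 51.1% in young adults. Without column 1 the young adult sum was 34.2 FPKM, with 31.5% from *elt-3*, 27.2% from *elt-2* and 21.5% from *elt-1*. In dsRIP the sums were 177, 58.8, 58.6 and 40.0 FPKM in the same order of stages.

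Stage differences have no replicate check, with 1 sample per stage and molecule, so a gene was called where its means were at least 2-fold apart on the log2(FPKM + 1) scale and its columns did not overlap. From embryos to L1-L2 larvae 2 of the 6 genes were called lower in total RNA, *end-1* and *elt-1*, where 18.5% of all 20628 genes and EERs past the filter were. The columns of 3 of the 6 did not overlap, the third being *elt-7*, against 44.6% of all. The count called was 4 of 6 when column 2 was left out, with *end-3* and *elt-7* added (21.6% of all lower), and 4 of 6 without column 3, with *end-3* and *elt-2* added (20.7% of all). From L1-L2 to L3-L4 larvae 1 of 6, *elt-1*, was called lower (6.99% of all) and none higher (3.45% of all), and its columns alone did not overlap (18.1% of all). From L3-L4 larvae to young adults none was called in total RNA (9.01% of all higher, 9.73% lower), and the columns of none were apart (25.6% of all).

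Over the whole course, from embryos to young adults, 5 of 6 were called lower in total RNA, all but *elt-3*, against 19.5% of all features, and the columns of the same 5 did not overlap (40.8% of all). Without column 1 of young adult total RNA the count was 6 of 6, where 4135 of the 20628 features were called lower. *elt-3* was then also called lower from L3-L4 larvae to young adults, as 12.7% of all were. None of the 6 was called higher at any step in total RNA, where 17.4% of all were higher from embryos to L1-L2 larvae and 15.1% from embryos to young adults. The median log2 difference of the 6 genes from embryos to young adults was -2.10, and that of all features -0.02; without that column the members' median was -2.27.

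In dsRIP RNA 3 of 6 were called lower from embryos to L1-L2 larvae, *end-1*, *elt-7* and *elt-1*, against 18.2% of all, and with *elt-3* the columns of 4 did not overlap (38.2% of all). From L1-L2 to L3-L4 larvae *elt-7* was called higher (3.57% of all) and none lower (6.69%), and the columns of *elt-7* alone did not overlap (16.2% of all), on the 1 and 9 reads given above. From L3-L4 larvae to young adults none was called (11.3% of all higher, 7.81% lower), and the columns of *elt-2* alone did not overlap (27.2% of all). From embryos to young adults 4 of 6 were called lower, *end-1*, *elt-7*, *elt-1* and *elt-3* (19.1% of all). The columns of these 4 and of *elt-2* did not overlap (39.6% of all), but *elt-2* fell short of the 2-fold mark there, with a log2 difference of -0.92.

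Immunoprecipitation with the dsRNA antibody asks which transcripts hold double-stranded stretches, and none of the 6 GATA genes passed the test for enrichment or depletion. With limma across the 8 samples, stage as a block and Benjamini-Hochberg adjustment over 20628 features, 0 of 6 were called in either direction at an adjusted p under 0.05, where 2.11% of all features were higher in dsRIP and 2.12% lower. At an unadjusted p under 0.05 the count was also 0 of 6, and limma-voom on the reads gave 0 of 6. The 4 stages are the only replicates of this contrast.

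The size of the ratio was held most closely for the epidermal genes and *elt-2*. *elt-1* gave a log2 ratio of dsRIP over total RNA of 0.18 ± 0.11 (SE, limma) with a 95% interval of -0.11 to 0.46 and an adjusted p of 0.404. It was above 0 at 4 of 4 stages, between 0.14 and 0.22, but without column 1 of young adult total RNA the young adult ratio was -0.14 and the mean over stages 0.09. *elt-3* gave -0.01 ± 0.17 (interval -0.44 to 0.42, limma adjusted p 0.980) and *elt-2* -0.04 ± 0.13 (interval -0.37 to 0.29, limma adjusted p 0.903), each above 0 at 2 stages and below 0 at 2. Without that column the ratio of *elt-3* was 0.22 and that of *elt-2* -0.11, and none of the 6 was called. With all columns in use, the interval of these 3 genes excludes a 2-fold difference either way.

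For the rarer genes the interval was wide. *end-1* gave -0.26 ± 0.35 (interval -1.16 to 0.65, limma adjusted p 0.720). Its log2 ratio was 0.28 in embryos and -1.31 in young adults, where total RNA had 2 reads and dsRIP 0. Without column 1 of young adult total RNA its young adult ratio was -1.69. *end-3* gave 0.35 ± 0.45 (interval -0.80 to 1.49, limma adjusted p 0.701) and *elt-7* -0.45 ± 0.58 (interval -1.92 to 1.03, limma adjusted p 0.702). The direction of these 3 and of *elt-2* and *elt-3* turned when 1 stage was left out, and that of *elt-1* did not.

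Of the 24 combinations of gene and stage, the dsRIP and total RNA columns did not overlap in 1, *elt-7* in L1-L2, where 15.8% of all features did not overlap. Its total RNA columns were 9.06, 14.1 and 9.004 FPKM and its dsRIP columns 2.79, 0 and 0. The total RNA level was 10.8 times that of dsRIP, from 17 reads and 1 read, with a 95% counting interval of 1.69 to 451. At the other 3 stages the *elt-7* log2 ratio lay between 0.12 and 0.48 with all columns in use. Without column 1 of young adult total RNA the young adult ratio of *elt-7* was 0.82. Its mean over stages without the L1-L2 pair was 0.27. In embryos *elt-3* was higher in dsRIP in 3 of 3 same-numbered columns, and in L1-L2 larvae in 0 of 3, as was *elt-7*. These cases were picked from the 24 for their agreement, and the share of all features with such agreement was not counted. The embryo total RNA level of *elt-3* was 0.742 times that of dsRIP (95% counting interval 0.558 to 0.9901), though the columns of the groups overlapped. The counting intervals here were not adjusted for the 24 combinations. Of all features, those whose columns did not overlap were 13.7% in embryos, 11.6% in L3-L4 and 7.18% in young adults, where none of the 6 genes was among them.

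**Figure D3:**
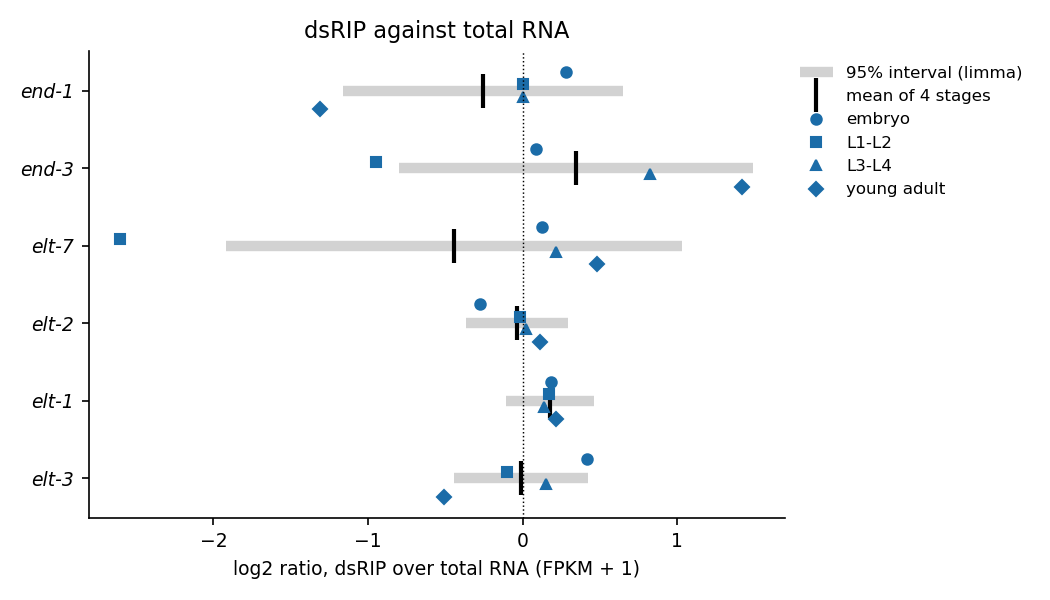
The log2 ratio of dsRIP to total RNA on the FPKM + 1 scale for each gene. Points are the 4 stages, the black bar their mean, the grey band the 95% interval from limma, and the dotted line marks equal levels. All 6 bands include 0, and the point for *elt-7* in L1-L2 stands apart at -2.60.

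Most genes that act above *end-1* and *end-3* had their highest level in embryos. Of 12 genes of maternal endoderm specification (SKN-1, the Wnt and Src pathways and PAL-1), 10 were called lower in total RNA from embryos to L1-L2 larvae and 9 from embryos to young adults (18.5% and 19.5% of all features), with median log2 differences of -2.06 and -1.31. *skn-1*, the maternal factor that starts the cascade, went from 141.8 ± 9.64 FPKM in embryos (SD over 3 columns, as below) to 87.7 ± 18.7 in L1-L2 and 48.7 ± 8.67 in L3-L4. *pop-1*, the TCF factor, stood at 116 ± 10.3, 20.9 ± 6.98 and 16.9 ± 8.19 at the same stages. The Frizzled receptor gene *mom-5* went from 198 ± 70.4 to 39.7 ± 13.1 and the kinase gene *src-1* from 125 ± 8.16 to 30.4 ± 1.51 from embryos to L1-L2 larvae. *skn-1* and *lit-1* were not called at the first step, and *wrm-1*, *apr-1* and *pal-1* were not called from embryos to young adults. From L3-L4 larvae to young adults 3 of the 12 were called higher, *mom-2*, *apr-1* and *pal-1* (9.01% of all), and 5 without column 1 of young adult total RNA. In young adults *mom-2* stood at 37.5 ± 27.5 FPKM, *pal-1* at 37.3 ± 17.6 and *apr-1* at 33.7 ± 30.1. The 6 maternal germline markers moved in the same direction at 2 steps, 6 of 6 called lower from embryos to L1-L2 and 6 of 6 higher from L3-L4 larvae to young adults. Over the whole course they parted from the list. From embryos to young adults 1 of the 6 markers was called lower, with a median log2 difference of -0.17 against -1.31 for the list. The part of maternal germline RNA in the result was not tested.

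Of 12 early zygotic regulators of endoderm and mesoderm, 11 passed the filter, and 7 of these were called lower from embryos to L1-L2 larvae and 9 from embryos to young adults in total RNA (18.5% and 19.5% of all features). None was called higher at either step (17.4% and 15.1% of all). Several of the 11, *med-1* and *tbx-35* among them, reached 1 FPKM in the embryo samples alone and so passed the filter through embryos. Such genes could be called lower or not called, but not higher, so part of these counts was fixed in advance. The muscle regulator *hlh-1* went from 51.9 ± 9.41 FPKM in embryos to 5.15 ± 1.22 in young adults, and the pharynx regulator *pha-4* from 31.8 ± 8.05 to 3.13 ± 1.85. *unc-120*, another muscle regulator, went from 79.2 ± 6.84 to 9.05 ± 3.71, and the zinc-finger gene *die-1* from 71.3 ± 10.7 to 9.99 ± 5.66. *tbx-35*, a T-box gene of the mesodermal MS cell, had 4 reads in embryo total RNA and 0 at every later stage, so a lower level later was not detectable at this depth in total RNA.

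Of 18 intestinal effector genes 15 were called higher and 0 lower in total RNA from embryos to L1-L2 larvae (17.4% of all features higher), with a median log2 difference of 2.34, at the step where *end-1* was called lower and *elt-7* and *elt-2*, with all columns in use, were not called. Body muscle markers were higher at the same step: *unc-54*, *myo-3* and *unc-15*, genes of the contractile filaments, were 3 of 3 called higher with a median log2 difference of 2.55, and the part of tissue make-up in either value was not tested. The aspartic protease gene *asp-1* went from 134 ± 74.6 to 1585 ± 739 FPKM, the brush-border actin gene *act-5* from 145 ± 4.38 to 803 ± 216, and the intermediate filament gene *ifb-2* from 87.0 ± 11.8 to 282 ± 22.8. The esterase gene *ges-1*, a classic target of the gut GATA factors, stood at 7.81 ± 2.73 FPKM in embryos and 17.8 ± 5.81 in L1-L2. From embryos to young adults 10 of the 18 were called higher and 1, the innexin gene *inx-16*, lower (15.1% and 19.5% of all). From L3-L4 larvae to young adults 3 of the 18 were called lower and 0 higher (9.73% and 9.01% of all), with a median log2 difference of -0.83. Without column 1 of young adult total RNA 3 were called lower and 1 higher (12.7% and 11% of all). Unlike that median, *cpr-6*, a cysteine protease gene, had its highest mean in young adults, at 263 ± 143 FPKM against 69.6 ± 8.87 in embryos.

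**Figure D4:**
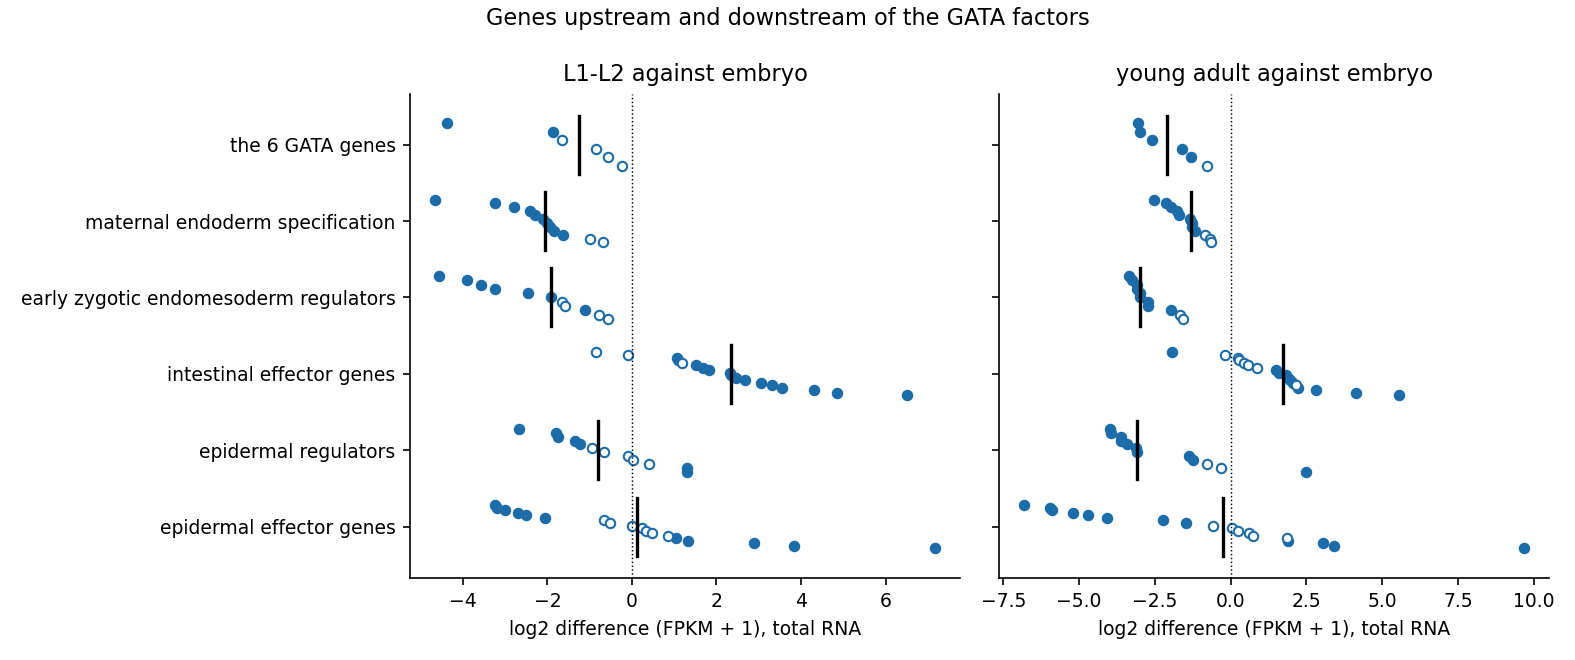
Log2 differences on the FPKM + 1 scale in total RNA, L1-L2 larvae against embryos (left) and young adults against embryos (right). Each point is a gene past the filter, filled where it was called and open where not, and black lines are medians. At the first step the 6 GATA genes lie at or below 0, whereas 15 of the 18 intestinal effector genes are called higher.

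Among 12 epidermal regulators 5 were called lower and 2 higher from embryos to L1-L2 larvae in total RNA (18.5% and 17.4% of all features), and 9 lower and 1 higher, the heterochronic gene *lin-29*, from embryos to young adults (19.5% and 15.1%). *blmp-1*, a zinc-finger repressor gene, went from 90.8 FPKM in embryos (78.7 to 109 over the columns) to 4.98 ± 2.34 in young adults, and *grh-1*, the Grainyhead gene, from 73.4 ± 8.38 to 5.06 ± 0.654. *lin-26*, a zinc-finger gene needed to keep the epidermal fate, went from 53.2 ± 17.4 in embryos to 22.01 ± 2.15 in L1-L2. *nhr-25*, a nuclear receptor gene of the molting cycle, went from 31.8 ± 7.60 in embryos to 6.11 ± 4.89 in L3-L4 and 2.04 ± 1.35 in young adults. *nhr-23*, another molting regulator, was not called at any step, with means between 7.68 and 13.9 FPKM in total RNA. The larval pools hold molting and intermolt animals, so levels of cycling genes are averages over the molting cycle.

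The 18 epidermal effector genes were split, with 5 called higher and 6 lower from embryos to L1-L2 larvae in total RNA (17.4% and 18.5% of all features). From L3-L4 larvae to young adults 11 were called lower (9.73% of all) and 1 higher (9.01%), the adult collagen *col-19*, at 818 ± 312 FPKM in young adults. The cuticle collagen *dpy-7* stood at 306 ± 33.6 FPKM in embryos, 32.8 ± 22.7 in L1-L2, 114 ± 56.5 in L3-L4 and 1.73 ± 0.733 in young adults. Its relatives *sqt-3* and *dpy-2* went from 900 ± 375 and 361 ± 35.2 in embryos to 23.3 ± 8.01 and 4.86 ± 0.634 in young adults. The antimicrobial peptide gene *nlp-29* was called higher from embryos to L1-L2 larvae, from 31.9 ± 9.76 to 242 ± 129.

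In dsRIP RNA the lists gave similar counts, with the same limit from the filter for the zygotic regulators. From embryos to L1-L2 larvae 11 of 12 maternal genes, 6 of 11 zygotic regulators and 6 of 12 epidermal regulators were called lower (18.2% of all features), and 13 of 18 intestinal effector genes higher (14.5% of all). Against total RNA, 1 of the 18 intestinal effector genes passed the test, *spl-1*, a sphingosine phosphate lyase gene, with a log2 ratio of -0.56 ± 0.06 (SE, limma adjusted p 0.0229), where 2.12% of all features were lower. That call was lost when any of the 4 stages was left out, with limma adjusted p between 0.0840 and 0.131. The loss is not particular to *spl-1*, because 0 of all features were called in those fits. Its log2 ratio stayed between -0.58 and -0.55 in them. The call was also lost with no stage block and with no trend in the fit. With no trend the limma adjusted p of *spl-1* was 0.114, while 106 features were still called higher and 30 lower. In the other 5 lists limma called 0 genes in either direction, with list medians between -0.20 and 0.04 and -0.08 for all features.

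The remaining GATA factors of the worm were mostly low. *egl-18*, which with *elt-6* keeps the seam cells of the epidermis, was the exception, at 81.0 ± 14.0 FPKM in embryo total RNA, 11.9 ± 3.72 in L1-L2, 5.66 ± 3.14 in L3-L4 and 5.62 ± 5.83 in young adults. It was called lower at the first step in both molecules, as *elt-1* was. *elt-6*, its neighbour, stood at 10.03 ± 4.47, 9.397 ± 3.41, 2.66 ± 0.898 and 0.272 ± 0.471 in the same order, and was called lower at the last 2 steps in total RNA. Its single young adult total RNA read lay in column 1. The annotated spans of *egl-18* and *elt-6* overlap (a gap of -457 bp), so a read in the overlap cannot be assigned to either with certainty.

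*elt-4*, a small gene 5.26 kb from *elt-2* on chromosome X, had between 0 and 4 reads in any sample. *med-1* and *med-2*, which act between SKN-1 and the *end* genes, had 4 and 2 reads in the series. They are near-identical copies whose reads cannot be told apart with certainty, and *med-2* did not pass the filter. No stage difference of *elt-4*, *med-1* or *med-2* was detectable at this depth.

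The genes whose pattern was most like that of each factor were found by Pearson correlation of log2(FPKM + 1) over the 8 sample means, among genes with at least 100 reads. For *end-1* the closest was *dsl-1* (r = 0.997), a gene of the Notch ligand family, with 62.0 FPKM in embryo total RNA, 61.7 in embryo dsRIP and 0 in both larval stages. *Y111B2A.9* and *tcer-1* came next (r = 0.995 and 0.995). For *elt-7* it was the homeobox gene *ceh-93* (r = 0.952), followed by *ubc-12* and *daf-25* (r = 0.945 and 0.944). *ceh-93*, like *elt-7*, had its lowest level in L1-L2 dsRIP, at 2.83 FPKM against 8.61 in L1-L2 total RNA. It was picked for its likeness to *elt-7* over these same samples, so the shared low point is no separate support for that of *elt-7*.

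For *elt-1* the closest were the cohesin gene *coh-1* (r = 0.997), *mtre-1* (r = 0.997) and the histone H3 gene *his-6* (r = 0.995). Histone genes have near-identical copies, so the level of *his-6* is uncertain. For *elt-3* they were *F14B8.5* (r = 0.975), the Wnt gene *lin-44* (r = 0.966) and *Y45G5AM.6* (r = 0.966). For *elt-2* they were *F09F9.2* (r = 0.987), the innexin gene *inx-15* (r = 0.984) and *blmp-1* (r = 0.983), and for *end-3* *usp-50* (r = 0.994), *fbxb-24* (r = 0.962) and *let-721* (r = 0.962).

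Over the 24 columns *dsl-1* and *ceh-93* stayed first, at r = 0.991 and 0.771, and the closest genes of the other 4 factors did not. *F09F9.2* fell to r = 0.62 and rank 241, and *F14B8.5* to 0.63 and rank 405. *coh-1* fell to 0.88 and rank 112, and *usp-50* to 0.74 and rank 12. Of the next genes for *end-1*, *Y111B2A.9* fell to 0.82 and rank 837 and *tcer-1* to 0.95 and rank 58. Among the 6 factors themselves, the correlation over the 8 sample means was highest between *end-1* and *elt-1* (r = 0.87), *elt-7* and *end-3* (r = 0.86) and *elt-2* and *elt-3* (r = 0.86), and lowest between *elt-2* and *elt-7* (r = 0.35). Over the 24 columns the correlation was 0.84 between *end-1* and *elt-1*, 0.55 between *elt-7* and *end-3* and 0.28 between *elt-2* and *elt-3*. That between *elt-2* and *elt-7* was 0.03. The L1-L2 dsRIP level of *elt-7* behind its correlations rests on 1 read, and they were not recomputed without that sample. The 8 samples share stages and library depths, and a gene with few reads can match many others.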

How the data were processed

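The deposited table gives FPKM, as the authors computed it, for 25509 genes and 1541 EERs in 24 columns, and 0 columns were left unmapped. The submitters' processing notes name the build ce10 and the tools Novoalign, SAMtools 0.1.19 and bedtools 2.19.0, without their roles; the counting tool and its use of strand are not given in the sources used here. Columns of a sample were averaged. A dsRIP sample is titled L4-L4 but labelled L3-L4 by stage, and the stage label was followed. Whole reads were recovered from the steps between FPKM values. A gene's length was taken as the smallest whole length that made its 24 values whole reads. Every value other than 0 lay within 0.05 of a whole read, which was thus built in for genes and is no check of the recovery. Columns held 348064 to 914442 reads. Counting intervals of folds are exact conditional binomial intervals at 95% (scipy 1.17.1) and cover counting error only, as does the floor of 3 reads over a sample. The deposited EER lists carry a score per region whose making the authors' files do not state; it was not used, and the lists served only for distances. Symbols came from the WBcel235 annotation, Ensembl release 115, matched by sequence name for 24765 genes.

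dsRIP was compared with total RNA by limma 3.58.1 in R 4.3.3 (eBayes with trend) on log2(FPKM + 1), which understates folds of low genes, with a stage block and adjustment over 20628 features. The fit was tested on simulated data. Stage differences were not tested. The 6 genes, the lists and the rules were chosen with earlier results of these data known. Named genes are the 6, the 3 most alike in pattern for each, all other GATA factors, the 4 most abundant of each other list, and *skn-1*, *pop-1*, *tbx-35*, *lin-26*, *nhr-23*, *nhr-25*, *ges-1*, *asp-1*, *dpy-7* and *col-19*; *mom-2*, *apr-1*, *pal-1*, *lit-1*, *wrm-1*, *inx-16*, *lin-29*, *spl-1* and the muscle markers were named after their values were seen. Alternatives were other pseudocounts, filters, scalings, blocks and folds, and columns or stages left out; the dsRIP comparison on summed reads, voom and the omission of young adult total RNA column 1 were added after seeing the data. A sequence comparison of promoters and proteins was planned and is not reported here.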

Additional observations from a re-analysis of the deposited data

How the results depend on the processing

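Against total RNA 435 features were called higher and 438 lower in dsRIP. The counts were 272 and 237 with no filter, 862 and 272 with equal medians, 13 and 10 with no stage block, 106 and 30 with no trend, and 268 and 215 with young adult total RNA without column 1. Leaving out a stage pair gave 0 to 0 in both directions, voom gave 1594 and 1786, and 24 columns with a stage block gave 737 and 1051. With a replicate block over 24 columns the counts were 1016 and 1457; deviations of columns with the same number correlated at 0.35 to 0.66 in all 9 cases of the first 3 stages, with the 18 other cases below 0. In young adults column 2 gave 0.57 but columns 1 and 3 gave -0.07 and 0.06, against 0.26 and 0.36 between total RNA column 1 and dsRIP column 3 and the reverse, so the numbers were not taken to pair the samples at every stage. None of these settings called any of the 6 GATA genes. Their log2 ratios turned sign in 16 of 96 recomputed values. *elt-3* went to 0.0016 at pseudocount 5, 0.16 with equal medians, 0.0568 over 24 columns with the stage block and with the replicate block, 0.0261 with voom and 0.22 with young adult total RNA without column 1. *elt-2* went to 0.13 with equal medians and 0.0105 over 24 columns with either block, and *end-1* to 0.12 with voom. Leaving out a stage pair gave ratios of -0.437 to 0.0926 for *end-1*, -0.0111 to 0.777 for *end-3*, -0.755 to 0.273 for *elt-7*, -0.0891 to 0.0402 for *elt-2* and -0.154 to 0.156 for *elt-3*. The cause was not tested.

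Equal medians shift samples by -0.23 to 0.32 (log2). Of 208 recomputed counts of GATA genes called between stages or molecules, 188 stayed within 1.5 times. The gene called lower from L1-L2 to L3-L4 in total RNA was lost (0) at pseudocount 5, with equal medians and at 4-fold, and leaving out a column gave 0 to 2. The gene called higher there in dsRIP was lost (0) at pseudocount 5 and at 4-fold. At 4-fold the counts called lower were 1 from embryos to L1-L2 and 3 from embryos to young adults in total RNA, and 2 from embryos to young adults in dsRIP. With 2-fold alone, 1 was higher from L3-L4 to young adults in total RNA, 1 lower from L1-L2 to L3-L4 and 1 lower from L3-L4 to young adults in dsRIP. Leaving out a column gave 2 to 4 lower from embryos to L1-L2 in total RNA, and in dsRIP 0 to 1 from L1-L2 to L3-L4 and 0 to 1 from L3-L4 to young adults. With young adult total RNA without column 1, 1 was lower from L3-L4 to young adults. Planned tests with edgeR and DESeq2 were not run; voom on the recovered reads was run in their place. Read depth limits *end-1*, *end-3* and *elt-7* most, at 49, 19 and 114 reads in all.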
